A study of Homo sapiens with 6 samples.

Results

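The genes described here are the zinc finger genes of human chromosome 19 whose symbol is ZNF followed by a number. They were chosen by symbol and position alone, so no measured value entered the choice. Of the 50867 genes with values, 241 met both conditions. A further 237 genes with such a symbol lay on other chromosomes, and 23 ZNF genes of chromosome 19 with a letter after the number were left out. In GENCODE release 29, 238 of the 241 were listed as protein coding, and most genes of this kind belong to the KRAB zinc finger family.

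A KRAB zinc finger protein carries a KRAB domain and a row of C2H2 fingers that bind DNA. The KRAB domain recruits the scaffold protein TRIM28, which brings the histone methyltransferase SETDB1, HP1 proteins and histone deacetylases, so that chromatin around the bound site is repressed. Many of these proteins bind transposable elements, and the genes arose by tandem duplication, which left long arrays of related copies on chromosome 19.

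RNA was sequenced from 5637 and UM-UC-3, established lines of human bladder cancer cells, after lentiviral infection and puromycin selection. Each line carried a control hairpin (sh-NC), the first hairpin against the long non-coding RNA LNMAT1 (sh-LNMAT1#1) or the second (sh-LNMAT1#2), which made 6 groups of 1 library each. The 5637 cells were grown in RPMI medium and the UM-UC-3 cells in Dulbecco's modified eagle's medium, so medium and line cannot be told apart, and every library came from selected, stably infected cells. The study asked which genes respond to loss of LNMAT1. Values are FPKM, fragments scaled to gene length and library depth, so levels can be compared between genes, but being a mean over all cells of a library they cannot separate fewer expressing cells from less RNA per cell.

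The libraries held 19375000 to 24707000 fragments, read from genes with a single exon. LNMAT1 itself, listed as LINC01296, was 14.2 FPKM under the control hairpin and 6.20 and 6.70 FPKM under the hairpins against it in UM-UC-3, and read 11.7, 4.70 and 2.14 FPKM in the libraries labelled 5637. The library labelled 5637 sh-NC, called the labelled 5637 control from here on, went against its label at the markers of the line. The UM-UC-3 sh-NC library is called the UM-UC-3 control. EPCAM, an epithelial adhesion gene, was 33.8 and 35.6 FPKM in the 5637 knockdown libraries, at most 0.0210 FPKM in the UM-UC-3 libraries and 0.0104 FPKM in the labelled 5637 control. KRT5, a basal keratin, was 81.1 and 155 FPKM in the 5637 knockdown libraries and 0.0549 FPKM in the labelled library, and the mesenchymal factor ZEB1 was 0.0264 and 0.00774 FPKM against 12.6 FPKM. Of 10 epithelial and mesenchymal markers, 10 lay nearer to UM-UC-3 than to the 5637 knockdown libraries there. PTPRC and CD3E, which mark leukocytes, were at or under 0.0108 FPKM in all 6 libraries. The monocyte marker CD14 was 0.661 and 0.388 FPKM in the 5637 knockdown libraries and 0.104 FPKM in the labelled 5637 control. How the library came to differ from its label was not tested.

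The same was seen over the zinc finger genes. Over the 142 members averaging 0.5 FPKM or more, log2 levels in the library labelled 5637 sh-NC had a Pearson correlation across genes of 0.968 with UM-UC-3 sh-LNMAT1#1, and of 0.497 and 0.506 with the 5637 knockdown libraries. These points share libraries and genes, so the correlations are descriptions. The median absolute log2 difference was 0.17 from UM-UC-3 sh-LNMAT1#1 and 0.68 from 5637 sh-LNMAT1#1, and ZNF841 and ZNF83 were the 2 members over 2-fold apart between the labelled library and UM-UC-3 sh-LNMAT1#1. The lines were therefore compared through their knockdown libraries, and the library labelled 5637 sh-NC is given beside them.

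**Figure D1:**
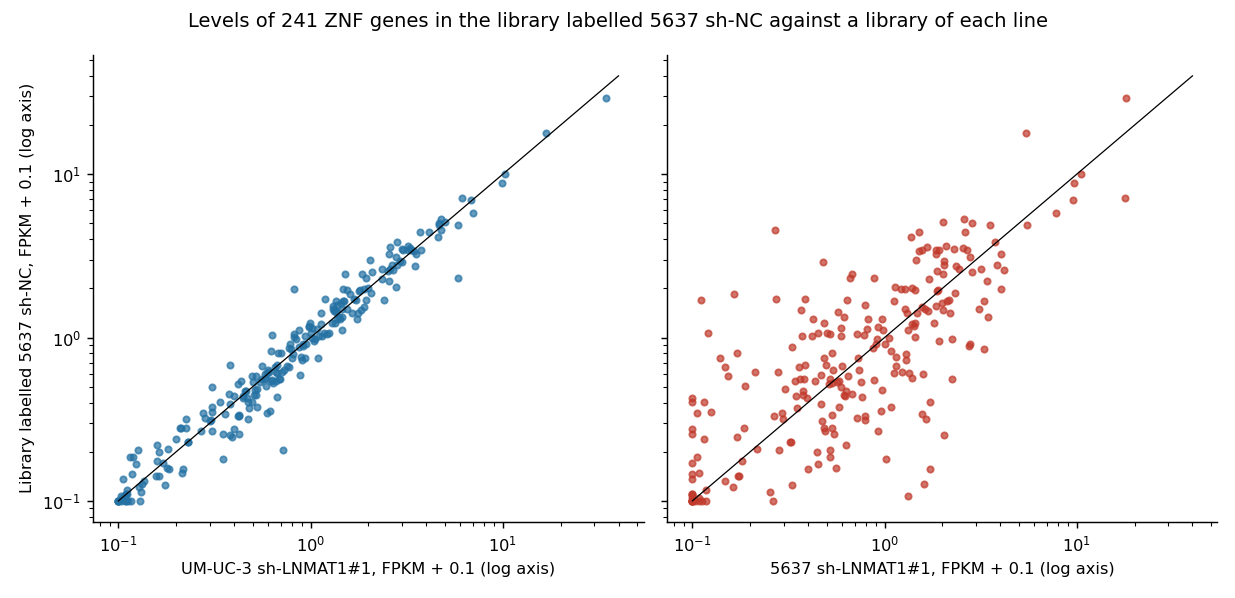
Level of each of the 241 members in the library labelled 5637 sh-NC (y axis, FPKM + 0.1, log axis) against UM-UC-3 sh-LNMAT1#1 (left, x axis) and 5637 sh-LNMAT1#1 (right, x axis). Each point is a gene and the line marks equal levels. Points lie close to the line on the left (r = 0.968 over the 142 members averaging 0.5 FPKM or more) and are spread on both sides of it on the right (r = 0.497).

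The promoters below are those of some members with large differences between the lines, each set with a close relative. ZNF600 and ZNF90 also differed widely and are not shown. They are the 250 bases before the RefSeq start on GRCh38.p14, 5′ to 3′ on the gene's strand, and capitals mark CG dinucleotides, the sites of DNA methylation. ZNF257 (chr19:22052234-22052483, plus strand) and ZNF492 (chr19:22634074-22634323, plus strand) were near 0 in the 5637 knockdown libraries and present in UM-UC-3, whereas ZNF208 (chr19:22010944-22011193, minus strand), from the same array, was near 0 in all 6 libraries.
ZNF257: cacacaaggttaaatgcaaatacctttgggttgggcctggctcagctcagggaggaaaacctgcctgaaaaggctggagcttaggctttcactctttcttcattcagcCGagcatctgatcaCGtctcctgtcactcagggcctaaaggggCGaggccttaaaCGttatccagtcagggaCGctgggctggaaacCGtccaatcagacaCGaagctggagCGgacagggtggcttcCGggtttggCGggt
ZNF492: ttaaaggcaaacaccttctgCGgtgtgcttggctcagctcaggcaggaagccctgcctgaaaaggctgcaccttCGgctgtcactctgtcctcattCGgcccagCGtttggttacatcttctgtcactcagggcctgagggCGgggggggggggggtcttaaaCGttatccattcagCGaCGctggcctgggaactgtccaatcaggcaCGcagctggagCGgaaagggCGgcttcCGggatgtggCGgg
ZNF208: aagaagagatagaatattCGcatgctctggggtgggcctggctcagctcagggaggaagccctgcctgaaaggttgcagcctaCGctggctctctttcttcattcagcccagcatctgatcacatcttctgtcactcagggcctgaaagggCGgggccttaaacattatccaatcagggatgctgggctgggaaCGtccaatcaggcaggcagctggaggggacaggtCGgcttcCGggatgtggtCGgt

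The next set shows the opposite pattern. ZNF439 (chr19:11848476-11848725, plus strand) and ZNF302 (chr19:34677428-34677677, plus strand) were present in 5637 and lower in UM-UC-3, ZNF439 near 0 and ZNF302 at 0.164 FPKM or less, and ZNF69 (chr19:11887532-11887781, plus strand) is a neighbour of ZNF439 that was at 0.459 FPKM or more in the 5637 knockdown libraries and in all 3 UM-UC-3 libraries.
ZNF439: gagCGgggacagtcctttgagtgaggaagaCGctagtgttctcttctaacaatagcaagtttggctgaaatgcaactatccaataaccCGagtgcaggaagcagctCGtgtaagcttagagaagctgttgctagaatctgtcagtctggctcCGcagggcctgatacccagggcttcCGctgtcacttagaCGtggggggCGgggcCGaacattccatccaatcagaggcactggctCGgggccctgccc
ZNF69: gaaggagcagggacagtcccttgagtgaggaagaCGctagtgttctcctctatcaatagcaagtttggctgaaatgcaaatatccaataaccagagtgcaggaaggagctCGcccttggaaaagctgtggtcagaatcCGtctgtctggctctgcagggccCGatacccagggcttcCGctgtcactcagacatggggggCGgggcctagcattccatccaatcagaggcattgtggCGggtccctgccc
ZNF302: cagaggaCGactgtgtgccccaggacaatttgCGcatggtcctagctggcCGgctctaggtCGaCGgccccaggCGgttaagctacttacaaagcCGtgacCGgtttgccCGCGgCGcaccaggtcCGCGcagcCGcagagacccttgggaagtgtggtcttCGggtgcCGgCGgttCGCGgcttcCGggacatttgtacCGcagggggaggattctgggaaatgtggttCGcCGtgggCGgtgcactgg

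ZNF208 and ZNF69 were chosen for their likeness after their values were seen. The ZNF257 promoter was 77.7% identical to that of ZNF492 and 81.8% identical to that of ZNF208 in a global alignment, and the ZNF439 promoter was 86.2% identical to that of ZNF69. Promoter identity was particularly high in the array that holds ZNF257, ZNF492 and ZNF208, called cluster 4 below: its 351 pairs of promoters had a median identity of 76.2%, while the medians of the other clusters lay between 50.2% and 55.2%. Whether promoter identity goes with level was not tested over these pairs. Of the members, 207 had a promoter in the RefSeq table. Their median was 16 CG dinucleotides in 250 bases, and 85.5% of them held 10 or more, compared with a median of 11 and 51.9% over all 27305 promoters of the table. Those promoters were taken without regard to gene type, and zinc finger genes of other chromosomes were not counted apart. The medians of the members called higher in 5637, called lower in 5637 and not called were all 16. The start that RefSeq gives for ZNF525 lies 35030 bases from the deposited one, and its promoter is not shown.

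The zinc finger genes were low in both lines. Over all members and libraries the median level was 0.579 FPKM, 13 members reached 5 FPKM in any library and 6 reached it in all 6 libraries. By contrast, 23 members (9.54%) stayed under 0.1 FPKM in every library, against 45.0% of all genes of the table, which also lists non-coding genes. Among the 237 genes with such a symbol on other chromosomes the share was 7.59%, so a low share was not particular to the members. ZNF135 was listed at 0 throughout. Taking 0.5 FPKM as present, 84 members were present in both 5637 knockdown libraries and all 3 UM-UC-3 libraries, and 140 were present throughout at least 1 of the lines. The median member level was 0.488 FPKM in the UM-UC-3 control and between 0.572 and 0.670 FPKM in the other 5 libraries.

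The highest member was ZNF146, a protein made almost entirely of fingers, with 18.0 and 19.5 FPKM in the 5637 knockdown libraries, 29.3 FPKM in the labelled 5637 control, 18.5 FPKM in the UM-UC-3 control and 34.2 and 28.1 FPKM in the UM-UC-3 knockdown libraries. ZNF787 was 10.5 and 10.8 FPKM in the 5637 knockdown libraries and 10.2 to 16.1 FPKM in UM-UC-3. ZNF428 was 5.34 and 5.08 FPKM in the 5637 knockdown libraries, 17.7 FPKM in the labelled 5637 control and 14.5 to 16.6 FPKM in UM-UC-3, so the lines did not overlap. ZNF358, which lay outside the arrays, had the opposite order, with 17.7 and 16.6 FPKM in the 5637 knockdown libraries and 5.90 to 8.25 FPKM in UM-UC-3. ZNF865 was alike in both, with 9.53 and 8.54 FPKM in the 5637 knockdown libraries and 6.88 to 9.83 FPKM in UM-UC-3.

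Joining members at most 500 kb apart gave 10 clusters of at least 5 members, which held 229 of the 241, and 12 members lay outside. The largest were cluster 10 at the long-arm end with 41 members (chr19:57191500-58481230), cluster 8 with 39 (chr19:51571298-53580269) and cluster 4 beside the centromere with 35 (chr19:19668796-24129961). Cluster 3 had 26 members, cluster 6 had 24, cluster 7 had 23, cluster 9 had 16, cluster 2 had 14, cluster 5 had 6 and cluster 1 had 5.

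**Figure D2:**
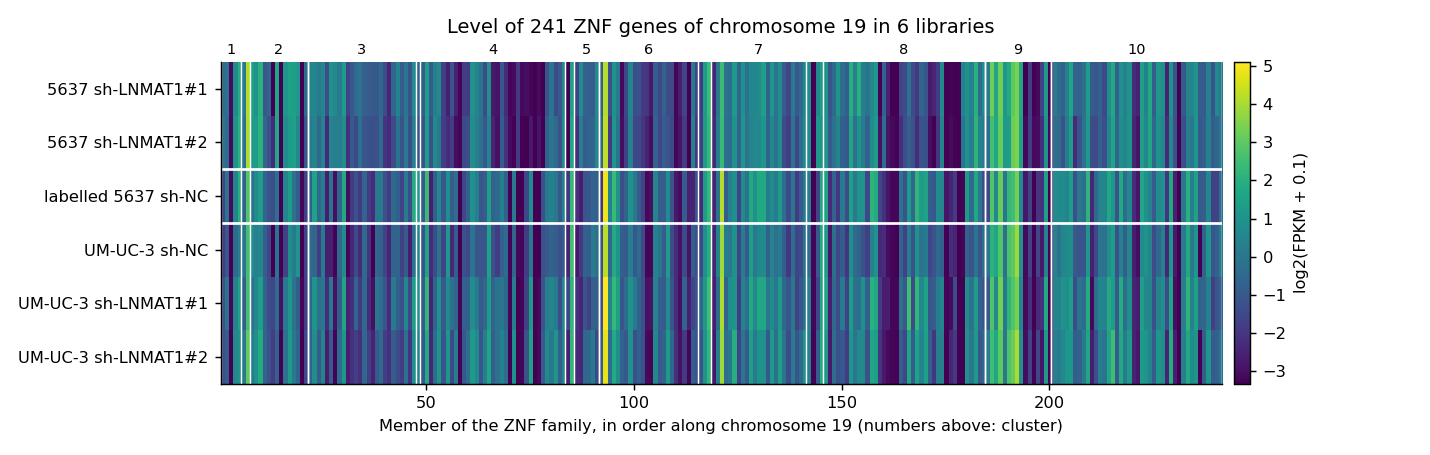
Level of the 241 members, as log2(FPKM + 0.1), in the 6 libraries (rows) in order along chromosome 19 (columns), with white lines and numbers for the 10 clusters. Dark stretches in the upper 2 rows within clusters 4 and 8 are brighter in the 3 UM-UC-3 rows, and the row of the library labelled 5637 sh-NC resembles the UM-UC-3 rows.

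To ask which members differ between the lines, the 2 knockdown libraries of 5637 were compared with the 2 of UM-UC-3 on log2(FPKM + 0.1), a scale that understates the differences of low genes, with limma over all 15249 genes averaging 0.5 FPKM or more. Members were called at an adjusted p under 0.05. Of the 144 members tested, 16 were higher in 5637 (11.1%) and 27 were lower (18.8%), while over all genes tested 20.0% were called higher and 17.9% lower. The other 97 members were under the filter. The median log2 difference was -0.08 over the members tested and -0.01 over all genes. The libraries of the lines did not overlap for 55 of the members tested with 5637 lower (38.2%, against 36.2% of all genes) and for 44 with 5637 higher (30.6%, against 36.1%). The share called lower thus lay near the background and the share called higher below it. The hairpins served as the spread of each line and are not replicate cultures.

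These counts rested on few libraries. Without 5637 sh-LNMAT1#1 there were 0 members called higher and 5 lower, without 5637 sh-LNMAT1#2 there were 3 and 5, and without UM-UC-3 sh-LNMAT1#1 there were 16 and 14. With all 6 libraries taken by their labels, 0 were called in either direction. The library labelled 5637 sh-NC lay nearer to UM-UC-3 at 42 of the 43 called members, with ZNF761 as the exception, and UM-UC-3 sh-NC lay nearer to its own line at 31 of the 43.

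**Figure D3:**
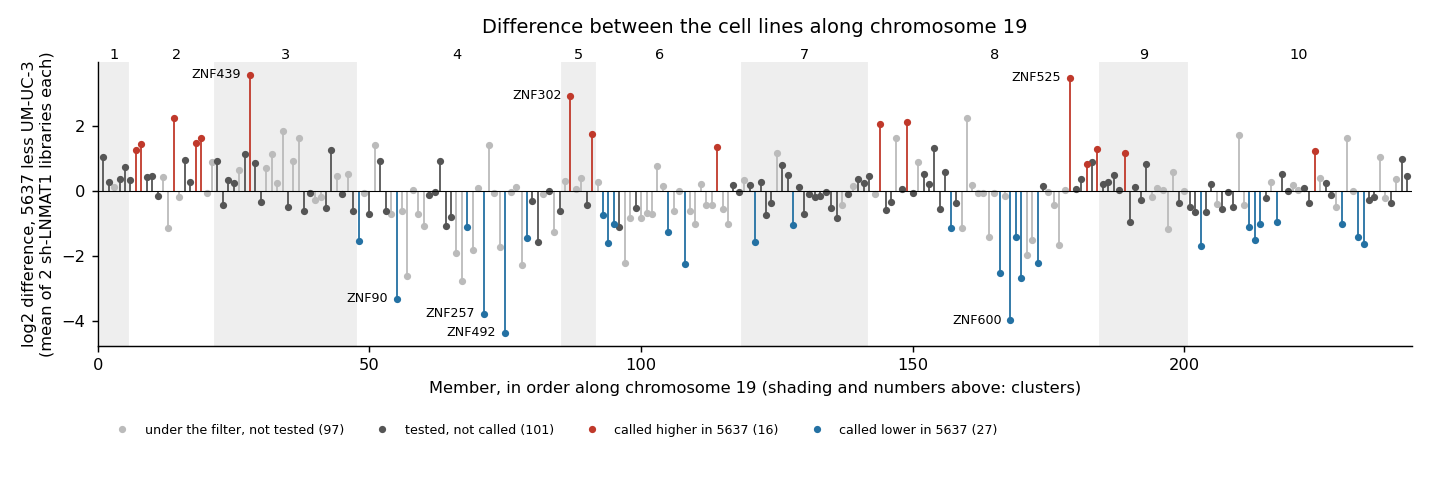
Difference in log2(FPKM + 0.1) between the means of the 2 sh-LNMAT1 libraries of 5637 and of UM-UC-3 (y axis) for each of the 241 members in order along chromosome 19 (x axis), with alternate clusters shaded and numbered. Red points are the 16 members called higher in 5637, blue the 27 called lower, dark grey those tested and not called, and light grey the 97 not tested. Called members of cluster 4 all lie below 0 and those of cluster 2 above it.

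The direction of the calls differed from cluster to cluster, where 20.0% of all genes tested were called higher and 17.9% lower. Some clusters had few members tested, and differences between clusters were not tested. In cluster 4 the calls were 0 higher and 5 lower of 16 tested, in cluster 10 they were 1 and 8 of 28, and in cluster 6 they were 1 and 5 of 8. Clusters 2 and 5 showed the reverse, with 4 higher and 0 lower of 9 tested and with 2 higher and 0 lower of 3. Cluster 8 held calls of both kinds, 4 higher and 6 lower of 23. Cluster 7, with 19 members tested, had 0 higher and 2 lower, clusters 3 and 9 had 1 higher each and 0 lower, and cluster 1 had 0 of either. Of the 12 members outside the clusters, ZNF358 and ZNF114 were called higher and ZNF333 lower. The median log2 difference of the members tested was -1.05 in cluster 6, -0.75 in cluster 4, -0.37 in cluster 10, 0.94 in cluster 2 and 1.75 in cluster 5.

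Cluster 4, the centromere-side array, held the member with the largest difference. ZNF492 was 0.0113 and 0.0486 FPKM in the 5637 knockdown libraries, 0.963 FPKM in the UM-UC-3 control, 2.31 and 2.79 FPKM in the UM-UC-3 knockdown libraries and 1.60 FPKM in the labelled 5637 control. It has a single annotated transcript, by whose length these values stand for 1.00 and 4.00 fragments in the 5637 knockdown libraries and for 101, 218 and 272 in the UM-UC-3 libraries. The first value is under a floor of 3 fragments, and fragments and floors cover counting error only. Its log2 difference was -4.36 (standard error 0.35, adjusted p 8.30e-04 by limma). Of the 50-base words of its transcript, 33.3% also occur in transcripts of other genes, mostly in those of its relative ZNF98, so reads may be split between them.

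ZNF257 was 0.01998 FPKM in 5637 sh-LNMAT1#1 and listed at 0 in 5637 sh-LNMAT1#2, but 0.576, 1.07 and 1.79 FPKM in the UM-UC-3 libraries and 0.973 FPKM in the labelled 5637 control. Its log2 difference of -3.76 (standard error 0.41, adjusted p 0.00208) depends on the pseudocount and is no bound, since both 5637 values stand for 2.09 fragments or fewer. ZNF90 was 0.0651 and 0.109 FPKM in the 5637 knockdown libraries against 1.51 to 2.13 FPKM in UM-UC-3, a log2 difference of -3.31 (standard error 0.35, adjusted p 0.00194). ZNF91, with 31 fingers by the finger pattern in its reading frame, is known for repressing SVA retrotransposons. It was 0.352 and 0.493 FPKM in the 5637 knockdown libraries, 0.409 FPKM in the UM-UC-3 control and 1.15 and 1.49 FPKM in the UM-UC-3 knockdown libraries, so UM-UC-3 sh-NC lay within the 5637 range. The difference between the knockdown libraries was -1.44 (standard error 0.33, adjusted p 0.0232). ZNF93, which is known for binding L1 elements, was 1.46 and 0.974 FPKM in the 5637 knockdown libraries and 0.844 to 1.94 FPKM in UM-UC-3, and was not called (adjusted p 0.181).

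Several members of this array under the filter followed the same direction. ZNF429 was 0.0394 and 0.0302 FPKM in the 5637 knockdown libraries and 0.185, 0.840 and 0.800 FPKM in UM-UC-3. ZNF730 was listed at 0 in both 5637 knockdown libraries and lay between 0.343 and 0.435 FPKM in UM-UC-3. Against these, ZNF676, the next member after ZNF257, was 0.163 and 0.175 FPKM in the 5637 knockdown libraries and at most 0.0137 FPKM in UM-UC-3. ZNF208 was at most 0.0186 FPKM in every library. Summed over its 35 members, cluster 4 reached 17.2 and 16.8 FPKM in the 5637 knockdown libraries, 18.7 FPKM in the UM-UC-3 control, 30.2 and 34.5 FPKM in the UM-UC-3 knockdown libraries and 28.9 FPKM in the labelled 5637 control.

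Cluster 8 held 2 neighbouring stretches of opposite sign. From ZNF600 to ZNF816, over 199 kb, 6 members in a row were lower in both 5637 knockdown libraries than in either UM-UC-3 knockdown library, and 4 of them were called. ZNF600 was 0.168 and 0.114 FPKM in the 5637 knockdown libraries against 1.88, 4.66 and 2.88 FPKM in UM-UC-3, a log2 difference of -3.98 (standard error 0.36, adjusted p 0.00126). ZNF468 was 0.379 and 0.340 FPKM against 1.03, 2.88 and 2.72 FPKM (log2 difference -2.66), but 55.8% of its transcript words occur elsewhere, mostly in the adjacent ZNF320. ZNF816 was 0.174 and 0.143 FPKM against 0.635, 1.09 and 1.12 FPKM. Just before this stretch, ZNF83 was 0.781 and 0.502 FPKM against 1.09, 5.77 and 2.90 FPKM (log2 difference -2.53, standard error 0.42). With 3 UM-UC-3 libraries against 2 of 5637 its difference was -1.92 and the call was lost. At ZNF83 and ZNF468 the UM-UC-3 control lay nearer to the 5637 knockdown libraries than to its own line.

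From ZNF525 to ZNF331, over 250 kb further along, 6 members in a row were higher in both 5637 knockdown libraries than in either UM-UC-3 knockdown library, and 3 were called. ZNF525 was 1.23 and 0.897 FPKM in the 5637 knockdown libraries, at most 0.00891 FPKM in the UM-UC-3 libraries and 0.00654 FPKM in the labelled 5637 control, a log2 difference of 3.48 (standard error 0.37, adjusted p 0.00197). The UM-UC-3 values stand for 1.58 fragments or fewer, under the floor of 3, so this difference is no bound either. ZNF331, an imprinted gene, was 1.62 and 1.05 FPKM against 0.671, 0.393 and 0.578 FPKM (log2 difference 1.28, adjusted p 0.0432). ZNF761 was 3.96 and 4.38 FPKM against 0.829, 2.44 and 2.18 FPKM, and 3.16 FPKM in the labelled 5637 control. The calls of ZNF331 and ZNF761 were lost with the hairpin as a replicate block, without a filter and under 75th-percentile scaling, and when any 1 of the 4 knockdown libraries was left out. ZNF649, at the other end of cluster 8, was 1.94 and 1.33 FPKM against 0.252 to 0.314 FPKM (log2 difference 2.11, adjusted p 0.00739).

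Such runs were looked for after the values were seen, over members of a cluster whose knockdown libraries did not overlap between the lines. That rule, which leaves out both sh-NC libraries, held for 88 of the 241 members with 5637 lower and for 71 with 5637 higher. Over the members tested it held for 38.2% and 30.6%, against 36.2% and 36.1% of all genes tested. The runs also took in members under the filter, and runs among other genes were not counted. Among the members, 7 runs of at least 4 were found. The longest went from ZNF146 to ZNF345 in cluster 6, with 10 members over 698 kb lower in 5637, of which 3 were called. It included ZNF382, a KRAB gene known to be silenced by promoter methylation in several tumours, which was 0.0143 and 0.0230 FPKM in the 5637 knockdown libraries and 0.370 to 0.534 FPKM in UM-UC-3. The other runs lay in clusters 2, 4 and 10. Over 84 pairs of adjacent tested members, the log2 differences of the partners had a Pearson correlation of 0.343 across pairs, and 54 pairs had the same sign. The pairs share members and neighbouring genes can share reads, so this is a description.

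In cluster 6 outside that run, ZNF569 was 0.284 and 0.369 FPKM in the 5637 knockdown libraries against 1.57 to 2.39 FPKM in UM-UC-3 (log2 difference -2.23, standard error 0.34, adjusted p 0.00634). ZNF607 ran the other way, with 0.912 and 1.17 FPKM against 0.248 to 0.484 FPKM. In cluster 10, ZNF274, which binds the 3′ ends of zinc finger genes and recruits SETDB1 to them, was 1.27 and 1.12 FPKM in the 5637 knockdown libraries, 3.40, 4.51 and 3.37 FPKM in UM-UC-3 and 4.01 FPKM in the labelled 5637 control (log2 difference -1.63, standard error 0.27, adjusted p 0.00913). ZNF460 was 0.541 and 0.327 FPKM against 1.37 to 1.84 FPKM. In cluster 7, ZNF428 differed by -1.56 on the log2 scale (standard error 0.20, adjusted p 0.00385) and ZNF224, a repressor of the aldolase A gene, was 2.60 and 2.00 FPKM against 1.54, 3.21 and 1.83 FPKM, with the lines overlapping.

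Clusters 2, 3 and 5 held most of the remaining members that were higher in 5637. ZNF439 in cluster 3 was 1.503 and 1.12 FPKM in the 5637 knockdown libraries, between 0.00492 and 0.0328 FPKM in UM-UC-3 and 0.0271 FPKM in the labelled 5637 control, a log2 difference of 3.57 (standard error 0.37, adjusted p 0.00183). Of its UM-UC-3 values, those of sh-NC and sh-LNMAT1#2 stand for 0.634 fragments or fewer and that of sh-LNMAT1#1 for 3.802 or fewer, so this difference is no bound, and with a pseudocount of 1 it was 1.18. Its neighbour ZNF69 was 1.05 and 1.11 FPKM against 0.459 to 0.663 FPKM and was not called (adjusted p 0.0904). ZNF302 in cluster 5 was 1.63 and 1.06 FPKM against 0.0832 to 0.164 FPKM (log2 difference 2.93, standard error 0.36, adjusted p 0.00336), while its relative ZNF181, with 75.2% promoter identity, was 0.529 and 0.460 FPKM against 0.359 to 0.617 FPKM. In the same cluster ZNF792 was 1.48 and 1.43 FPKM against 0.270 to 0.759 FPKM. In cluster 2, ZNF266 was 3.18 and 3.14 FPKM against 0.495 to 0.875 FPKM (log2 difference 2.25, adjusted p 0.00361). ZNF561 and ZNF562, which are adjacent to each other, were called as well. Between ZNF266 and this pair lie ZNF560, which was not tested, and ZNF426 and ZNF121, which were not called. ZNF561 was 2.69 FPKM in both 5637 knockdown libraries against 0.851 to 1.007 FPKM. ZNF562 was 2.13 and 1.41 FPKM against 0.459 and 0.535 FPKM in the UM-UC-3 knockdown libraries, but 1.94 FPKM in the UM-UC-3 control. ZNF114, which lies alone, was 1.46 and 2.12 FPKM against 0.258 to 0.448 FPKM (log2 difference 2.07, adjusted p 0.0114).

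**Figure D4:**
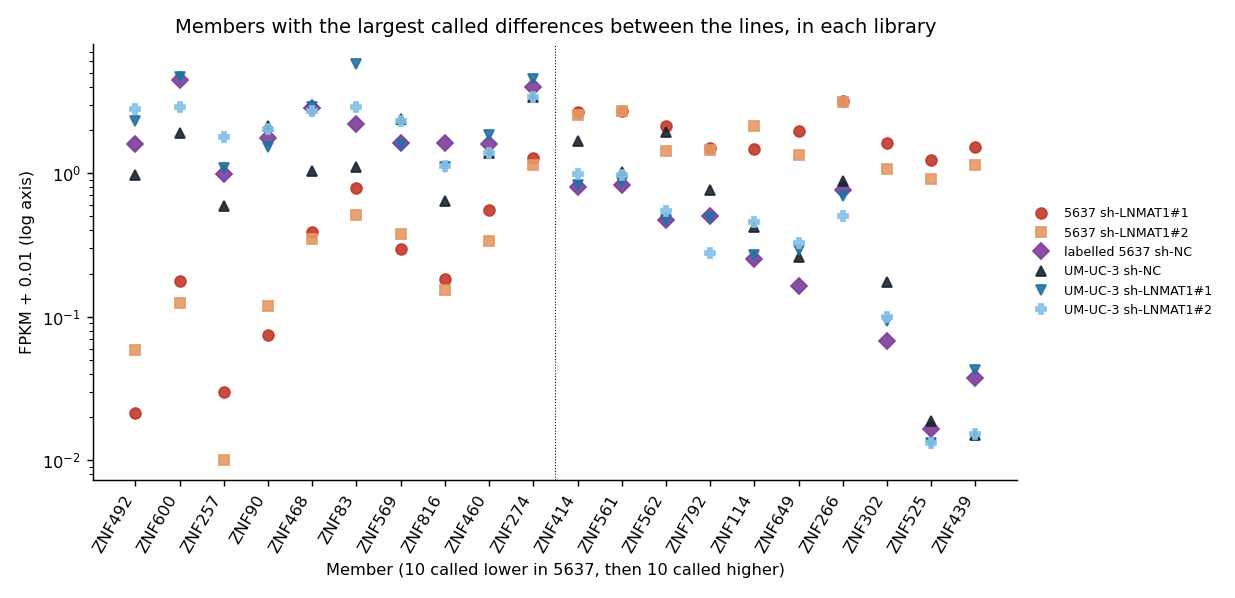
Level (FPKM + 0.01, log axis) of the 10 members called lower in 5637 with the largest differences (left of the dotted line) and of the 10 called higher (right), with 1 point for each library. The 2 sh-LNMAT1 libraries of 5637 lie below the UM-UC-3 knockdown libraries on the left and above them on the right, and the diamonds of the library labelled 5637 sh-NC fall among or near the UM-UC-3 points.

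Silence of a gene in a line was set at under 0.1 FPKM in every library considered and presence at 0.5 FPKM in every library. By these limits 2 members, ZNF257 and ZNF492, were silent in 5637 and present in UM-UC-3, and 2 others, ZNF439 and ZNF525, were silent in UM-UC-3 and present in 5637. Of the 15362 genes of the table present in either line, 2.35% were silent in 5637 only and 5.40% in UM-UC-3 only, and 140 members were present in either line. No cluster was silent as a whole in either line. The most members under 0.1 FPKM in both 5637 knockdown libraries lay in cluster 4, with 12 of 35, of which 5 were under it in all 6 libraries, and in cluster 8, with 10 of 39, of which 5 were. In all 3 UM-UC-3 libraries, 6 members of cluster 4 and 7 of cluster 8 were under it. Over all genes of the table, 45.0% were under it in all 6 libraries. That share can be set only beside the counts over all 6 libraries, not beside those of a single line. With silence set under 0.2 FPKM, the members silent in 5637 only and in UM-UC-3 only were 6 and 5. When the library labelled 5637 sh-NC was counted as 5637, both counts were 0.

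Among the members known as targets of promoter methylation in tumours, ZNF677 was listed at 0 in 5 libraries and at 0.00316 FPKM in 5637 sh-LNMAT1#1. ZNF154 was 0.117 and 0.0863 FPKM in the 5637 knockdown libraries and 0.0616 to 0.0819 FPKM in UM-UC-3, low in both. ZNF471 was 0.0151 and 0.0203 FPKM in the 5637 knockdown libraries and 0.0988 to 0.257 FPKM in UM-UC-3. All 3 were under the filter and had no test, and DNA methylation was not measured here.

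Knockdown of LNMAT1 was then compared with the control hairpin in UM-UC-3, where each construct has 1 library and no replicate check. Of the 137 members averaging 0.5 FPKM or more over the 3 libraries, 19 lay 2-fold or more above the control under both hairpins and 1 lay 2-fold or more below it, while 2.00% of all 14328 genes were higher and 0.635% lower by that rule. The median log2 change of the members was 0.48 with sh-LNMAT1#1 and 0.31 with sh-LNMAT1#2, against 0.01 and 0.02 over all genes. Of these members, 62.0% had their lowest level in sh-NC, compared with 33.0% of all genes. Both hairpins were read against the same control library, whose part in the shift was not tested. With pseudocounts of 0.5 and 1 in place of 0.1 the members at least 2-fold higher were 7 and 0.

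**Figure D5:**
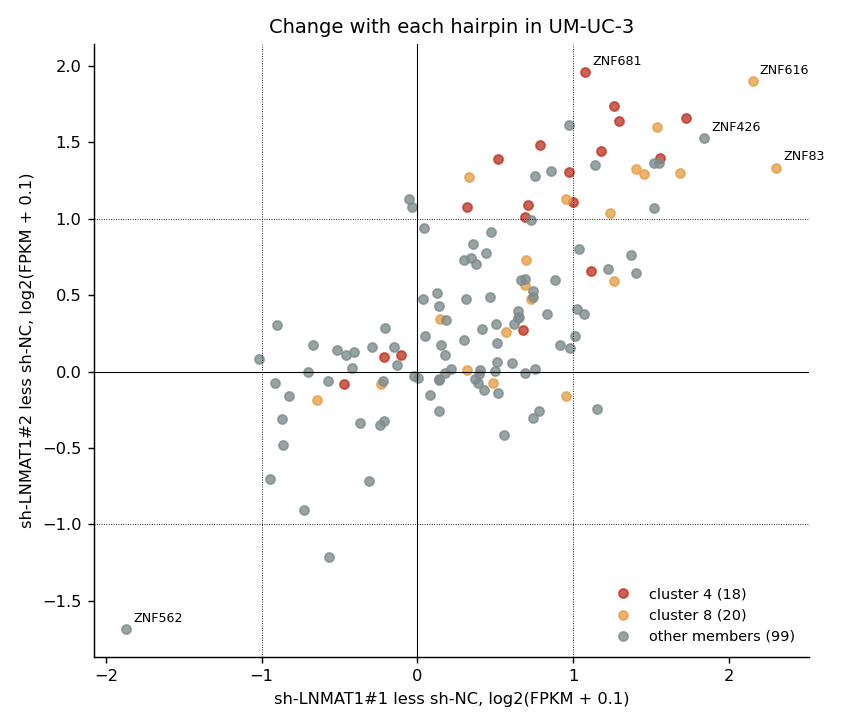
Change in log2(FPKM + 0.1) from UM-UC-3 sh-NC with sh-LNMAT1#1 (x axis) and with sh-LNMAT1#2 (y axis) for the 137 members averaging 0.5 FPKM or more, with dotted lines at 2-fold. The 19 members beyond both upper dotted lines include 7 of the 18 plotted from cluster 4 and 7 of the 20 from cluster 8, and ZNF562 is the member beyond both lower lines.

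Clusters 4 and 8 held 7 each of the 19 members. Their median log2 changes were 0.88 and 1.21 in cluster 4 with the first and second hairpin, and 0.84 and 0.66 in cluster 8. Cluster 5 had -0.74 and -0.64, over 2 members. In cluster 8, ZNF616 was 0.324 FPKM under the control hairpin and 1.79 and 1.48 FPKM under the first and second hairpin. ZNF83 was 1.09, 5.77 and 2.90 FPKM in the same order, ZNF766 was 1.19, 4.04 and 3.07 FPKM, and ZNF845 was 0.534, 1.75 and 1.82 FPKM. ZNF160, ZNF468 and ZNF761 were the others there. In cluster 4, the L1-binding ZNF93 was 0.844, 1.79 and 1.94 FPKM and the SVA-binding ZNF91 was 0.409, 1.15 and 1.49 FPKM. ZNF681 was 0.439, 1.04 and 2.00 FPKM, ZNF254 was 0.455, 1.53 and 1.36 FPKM, and ZNF714, ZNF429 and ZNF492 completed the 7. Elsewhere, ZNF426 was 0.217, 1.04 and 0.816 FPKM, ZNF627 was 0.594, 1.93 and 1.69 FPKM, ZNF791 was 0.801, 2.49 and 1.79 FPKM, ZNF227 was 0.973, 2.26 and 2.64 FPKM and ZNF134 was 1.20, 3.64 and 3.26 FPKM. The rule that chose these genes placed both knockdown libraries above sh-NC in each of them. In ZNF83 and ZNF681 the hairpins also stood apart from each other. ZNF562, the member that was lower, was 1.94 FPKM in sh-NC against 0.459 and 0.535 FPKM. Summed over all 241 members, these libraries held 248, 336 and 328 FPKM in the same order. The labelled 5637 control, which carries sh-NC by its label and resembles UM-UC-3, held 334 FPKM. In cluster 4 that library held 28.9 FPKM, against 18.7 FPKM in the UM-UC-3 control. That library was most like UM-UC-3 sh-LNMAT1#1 (Pearson correlation 0.968), so its sums cannot stand for the control hairpin in UM-UC-3. Whether the rise under the hairpins reflects knockdown or the single UM-UC-3 control library was not tested.

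In 5637 the same rule was read against the library labelled 5637 sh-NC, which resembles UM-UC-3. Of 142 members kept, 21 were at least 2-fold higher with both hairpins and 27 at least 2-fold lower, with 21.5% and 15.1% of all genes called. These differences repeat the contrast between the lines: ZNF492, at 1.60 FPKM in the labelled control and 0.0113 and 0.0486 FPKM with the hairpins, is an example. No response to knockdown in 5637 can be told apart from the difference between the lines here.

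Pooled over the lines, the 4 knockdown libraries were compared with the 2 control libraries by limma with the line as a covariate. No member of 142 was called, with 0 called of 15183 genes, and 982 genes, among them the members ZNF317 and ZNF761, had an unadjusted p under 0.05. Without UM-UC-3 sh-NC, the library labelled 5637 sh-NC was the only control. That fit sets the 5637 knockdown libraries against a library resembling UM-UC-3, so its calls are not given as a response to knockdown. The interaction of line and knockdown was called for 24 of 142 members, 7 of them positive and 17 negative, against 18.6% of all genes, and 20 of the 24 were also called between the lines.

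The partners through which KRAB proteins act were read from a list of 33 co-repressor and heterochromatin genes. All were tested, 12 were called higher in 5637 and 0 lower, against 20.0% and 17.9% of all genes, and their median log2 difference was 0.44. TRIM28, the KRAB scaffold, was 56.1 and 48.8 FPKM in the 5637 knockdown libraries against 33.6, 31.7 and 34.7 FPKM in UM-UC-3 (log2 difference 0.65, standard error 0.19, adjusted p 0.0453). SETDB1, the histone H3K9 methyltransferase it recruits, was 5.03 and 5.39 FPKM against 4.29, 3.33 and 3.74 FPKM and was not called (adjusted p 0.107). The DNA methyltransferase DNMT3B was 5.97 and 6.53 FPKM against 1.26 to 1.88 FPKM, and the H3K9 methyltransferase SUV39H1 was 6.90 and 6.68 FPKM against 0.807 to 1.99 FPKM. The other 9 called were ATRX, CBX3, CBX5, DNMT1, DNMT3A, EHMT1, EHMT2, KDM1A and UHRF1. In UM-UC-3, HDAC1 was at least 2-fold higher with both hairpins, with 9.73 FPKM in sh-NC and 22.8 and 20.7 FPKM with the hairpins, and 0 of the 33 were lower by that limit, against 2.00% higher and 0.635% lower of all genes.

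Zinc finger genes of other chromosomes gave 28 higher and 17 lower of 188 tested, or 14.9% and 9.04%. Other genes that lie within the spans of the 10 clusters gave 9 higher and 15 lower of 85 tested, or 10.6% and 17.6%, close to the shares among the members. For the UM-UC-3 hairpins, 8 of 178 kept zinc finger genes elsewhere were at least 2-fold higher with both and 0 lower, with median log2 changes of 0.12 and 0.24. The other genes within the spans had 6 of 88 higher and 0 lower, with medians of 0.47 and 0.13. The differences between these groups were not tested.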

How the data were processed

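RNA of 6 libraries, 1 for each of 3 hairpins in each of 2 bladder cancer lines, was extracted with TRIzol, purified on columns and made into stranded mRNA libraries. The submitters' processing notes name HISAT2 and the hg38 build. The counting program, the annotation and the handling of reads that match several genes are not given in the sources used here. The authors deposited FPKM for 50869 table rows, of which 2 were left out because a broken line had split 1 gene. Members were found by symbol and chromosome.

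Levels were compared on log2(FPKM + 0.1) over genes averaging 0.5 FPKM or more in the compared libraries, using R 4.3.3 with limma 3.58.1 (lmFit, and eBayes with a trend) and Benjamini-Hochberg adjustment over all genes tested. The lines were compared between 2 and 2 knockdown libraries, with 2 residual degrees of freedom, the pooled knockdown with the line as covariate (3) and the interaction with 2. Within a line, genes at least 2-fold apart from sh-NC with both hairpins were counted without a test. P-values measure the spread between these libraries only. The fits were tested on simulated data. The library labelled 5637 sh-NC did not enter the main comparison of the lines. Hairpin numbers do not mark a shared culture or day, so they served no pairing.

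Depth came from single-exon genes, whose FPKM were whole multiples of 1 fragment within 0.05 in at least 99.95% of values under 30 fragments. For other genes, fragments were given as a range from the shortest transcript to the union of exons in GENCODE release 29, where 224 members had the identical position. Fingers were matches of the C2H2 pattern in the longest open reading frame, and shared sequence was counted in words of 50 bases. Promoters were those of RefSeq on GRCh38.p14, aligned globally with Biopython 1.88. Alternatives were pseudocounts of 0.5 and 1, no filter and 1 FPKM, 75th-percentile scaling, other libraries, a hairpin block, no trend, other limits and each library left out. Named genes were the 5 highest members, the 10 largest calls in each direction, members silent in a line, the top member of each cluster, those changed with both hairpins in UM-UC-3, 9 characterised genes, and neighbours that differ from them. One of the listed leukocyte markers is not reported here. The members, lists and tests were chosen with earlier results of these data known.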

Additional observations from a re-analysis of the deposited data

Results flagged for a closer look

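For 16 of the members named above, the change with knockdown differed between the lines by the interaction term of limma (adjusted p under 0.05). This holds for 24 of all 142 members tested, while 18.6% of all genes tested were called. Each of these differences uses the library labelled 5637 sh-NC as the 5637 control, which lay near UM-UC-3 at 42 of 43 called members, and the part of that library was not tested. The change in 5637 less that in UM-UC-3 was positive for ZNF562 (3.49 on the log2 scale), ZNF302 (3.67), ZNF114 (2.66), ZNF649 (2.58), ZNF266 (2.44) and ZNF414 (2.43). It was negative for ZNF600 (-5.19), ZNF492 (-5.03), ZNF257 (-4.43), ZNF468 (-4.03), ZNF83 (-3.48), ZNF816 (-3.45), ZNF90 (-3.04), ZNF91 (-2.51), ZNF428 (-1.83) and ZNF146 (-1.38). No group holds 4 libraries, so no library could be examined as an outlier within its group.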

How the results depend on the processing

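Between the lines, 16 members were called higher and 27 lower. A filter of 1 FPKM gave 9 and 16, with fewer members tested, and all 6 libraries by label gave 0 and 0. Leaving out each library in turn gave 0 to 18 higher and 5 to 25 lower. With the hairpin as a replicate block the counts were 15 and 24. Under 75th-percentile scaling, which moved the median difference of all genes from -0.01 to -0.15, they were 12 and 31. The other settings gave 16 to 21 higher and 23 to 26 lower. In the pooled comparison, leaving out each library gave 0 to 13 higher and 0 to 18 lower, and all other settings gave 0.

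Members silent in 5637 only and in UM-UC-3 only, 2 and 2, were 6 and 5 with silence under 0.2 FPKM, 0 and 1 with presence at 1 FPKM, and 0 and 0 with 3 libraries taken as 5637. The 10 clusters became 12 with a gap of 250 kb and 9 with 1000 kb.

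In UM-UC-3, members 2-fold higher and lower with both hairpins, 19 and 1, became 7 and 1 with a pseudocount of 0.5, 0 and 0 with 1, 38 and 3 at 1.5-fold, 29 and 2 with sh-LNMAT1#1 alone and 32 and 2 with sh-LNMAT1#2 alone, and with a filter of 1 FPKM 16 and 0. In 5637, 21 and 27 became 11 and 16 with a pseudocount of 0.5, 5 and 9 with 1, 30 and 42 without a filter, 12 and 14 with a filter of 1 FPKM and 31 and 41 at 1.5-fold. Of the alternatives for single named members, 466 kept the direction and side of the threshold, 95 kept the direction only, 4 passed it newly and 24 reversed, over 12 members, none of them called between the lines; the cause was not tested. With all 6 libraries by label the log2 difference turned to 0.42 for ZNF627, 0.25 for ZNF791, 0.12 for ZNF700, 0.42 for ZNF714, 0.0084 for ZNF227, 0.38 for ZNF616 and 0.30 for ZNF224. With 3 UM-UC-3 libraries it turned to 0.061 for ZNF627, 0.46 for ZNF714, 0.14 for ZNF616 and 0.12 for ZNF224, and under 75th-percentile scaling to -0.10 for ZNF865, -0.12 for ZNF254 and -0.066 for ZNF845. Leaving out each library gave -0.59 to 0.062 for ZNF787, -0.12 to 0.20 for ZNF865, -0.76 to 0.35 for ZNF416, -0.28 to 0.20 for ZNF714, -0.066 to 0.096 for ZNF254 and -0.47 to 0.30 for ZNF224. Levels near 0 rest on few fragments. A difference between levels that were both near 0 was not detectable at this depth, and the size of a difference from such a level is uncertain.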
